A study of Mus musculus with 3 samples.

Results

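Cells described here are non-cycling T-lineage cells that carried Rag1 transcripts in single-cell RNA libraries from the aortic arch of the mouse. They were chosen from their own counts of unique molecular identifiers (UMIs, which tag single captured RNA molecules). A barcode, which stands for a cell, was kept with at least 500 UMIs, 300 detected genes and at most 15% mitochondrial UMIs. It was T-lineage with at least 3 UMIs summed over Cd3e, Cd3d, Cd3g, Trac, Trbc2 and Lck. It was a member with, in addition, at least 1 UMI of Rag1, at least 2 UMIs summed over Cd4, Cd8a and Cd8b1, and at most 2 UMIs summed over the cycling genes Mki67, Top2a, Ube2c, Birc5, Rrm2 and Pclaf. The rule found 1357 members among 8284 kept barcodes, of 12082 deposited.

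The libraries were prepared from the lesser curvature of the arch, from the intima that lines it inside. That is the source of whole libraries, and where the members lay in the tissue was not tested. All mice were wildtype C57BL/6J animals of 12 to 13 weeks, and each library pooled 5 to 10 animals of both sexes. The 2 control libraries came from untreated mice. The 1 LPS library came from mice given 30 µg of ultrapure lipopolysaccharide (LPS), a bacterial cell wall product, intravenously 18 h before harvest. All libraries shared perfusion with actinomycin D, a transcription blocker, a brief collagenase D and DNase I digestion, and the 10x 3' v3 chemistry. The labels do not number the controls, so control 1 and control 2 are named by the order of their records. Pools are the unit of replication, and nothing says that they are separate experiments. Where classes are compared with library as a block, p-values measure only how the class difference varies between these libraries. In the LPS comparisons they rest on the spread between the 2 controls. Either spread may be technical.

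Developing T cells pass through the thymus in a fixed order of stages. Cells without co-receptors rearrange the T cell receptor β chain, pair it with the pre-TCR α chain encoded by Ptcra, divide, and become double-positive cells that carry both CD4 and CD8. Double-positive cells stop dividing, express the recombinase genes Rag1 and Rag2 again, and rearrange the α chain. A receptor that binds self peptides moderately starts positive selection, in which the recombinase genes are turned off and genes such as Cd69, Cd5 and Bcl2 are turned on. Mature cells then express the transcription factor Klf2 and the sphingosine-1-phosphate (S1P) receptor S1pr1, and leave the thymus along the S1P gradient into blood. S1P is the lipid named in the title of the series.

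Members numbered 105 in control 1, 1223 in control 2 and 29 in the LPS library. They were 64.0% of T-lineage barcodes in control 1 (95% Clopper-Pearson interval 56.2 to 71.4), 71.3% in control 2 (69.1 to 73.4) and 31.9% in the LPS library (22.5 to 42.5). The LPS share lay below both controls, with intervals that did not overlap. With 1 LPS library there is no replicate on that side, so the share was not tested. As a share of all kept barcodes, members were 24.4%, 45.3% and 0.562% in that order, a denominator that differed in its makeup between libraries. All such intervals cover counting error only.

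The libraries were not alike in depth and quality. Members held 398458, 5163919 and 131267 UMIs in all in control 1, control 2 and the LPS library, with a median of 3562, 3927 and 4641 UMIs and of 1553, 1928 and 1795 genes per member. Their median mitochondrial share was 6.35%, 11.1% and 4.59%, and the ribosomal RNA-like transcript Gm42418 took 8.66%, 1.54% and 18.9% of their UMIs. In control 2, 129 further barcodes met the marker rule and failed a quality limit, against 4 in control 1 and 0 in the LPS library. Under a mitochondrial limit of 10%, members of control 2 numbered 331 and were 49.3% of its T-lineage barcodes, while the shares of control 1 and the LPS library were 63.9% and 33.3%. Libraries shared 2, 1 and 6 barcode sequences by pairs, and no barcode was a member in more than 1 library.

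The genes of the rule are given as a description, with no test. Rag1 (chromosome 2, 101638282 to 101649501, minus strand, GRCm38), the recombinase subunit that cuts DNA, had a median of 8, 8 and 5 UMIs per member in control 1, control 2 and the LPS library, and at most 38, 36 and 13. Members with a single Rag1 UMI were 5, 64 and 3, so few members rested on 1 molecule. Cells just outside that limit, with 0 Rag1 UMIs and all other limits met, numbered 19, 176 and 17. Dntt reached 1281, 922 and 430 UMIs per 1000000 UMIs of the summed cells (CPM) in members with 1 Rag1 UMI and 245, 267 and 37.7 CPM in those with 0. For the cycling sum, 1, 27 and 0 members held 2 UMIs and 1, 5 and 1 cells just outside held 3. For the mitochondrial limit, control 2 had 71 members at 14 to 15% and 39 barcodes at 15 to 16%.

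Both co-receptors were detected in 85.7% of the members in control 1, 83.8% in control 2 and 82.8% in LPS. The Cd8 genes alone were detected in 14.3%, 16.03% and 13.8%, and Cd4 alone in 0 of 105, 0.164% and 3.45%. Cd4 had a median of 2 UMIs per member in each library, against 13, 13 and 6 for the sum of Cd8a and Cd8b1. At such counts Cd4 is often missed, and after each member was thinned to 1500 UMIs, which left out 4 members of control 1, both co-receptors were seen in 61.4%, 49.4% and 41.4%. The label of the group, thymocyte-like, is met by Rag1 and the co-receptors by construction.

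**Figure D1:**
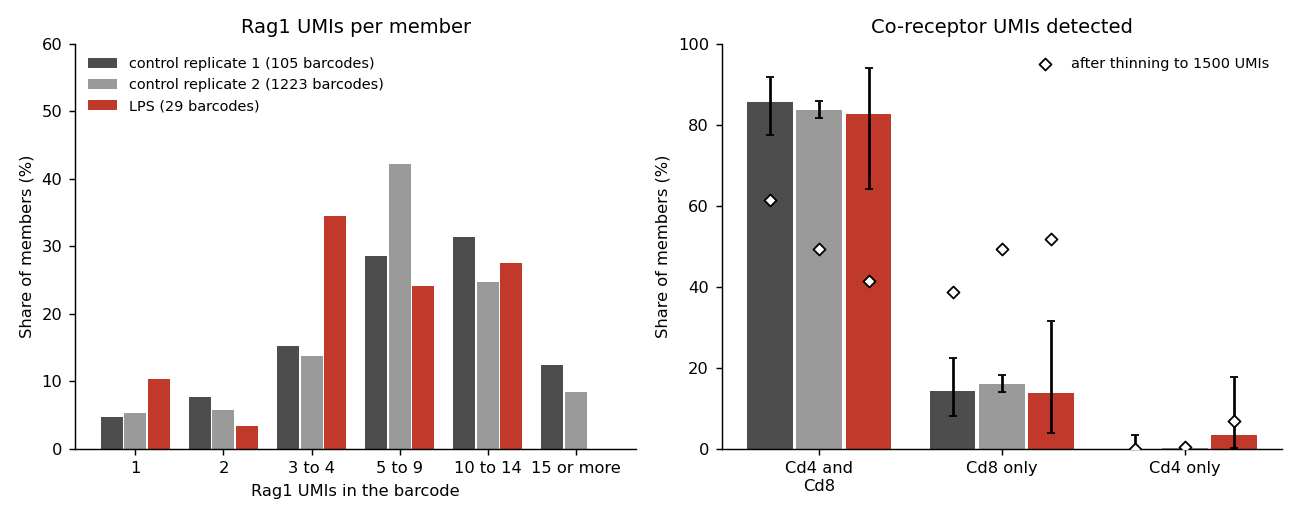
Rag1 UMIs per member (left) and co-receptor detection (right), each as a share of members in percent, for control 1 (105 members), control 2 (1223) and the LPS library (29). Error bars are 95% Clopper-Pearson intervals, and diamonds are the shares after thinning to 1500 UMIs, lower than the bars for Cd4 and Cd8 together.

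To see what accompanied Rag1 beyond the rule, UMIs were summed per library and class, and members were compared with the 34, 269 and 42 non-cycling T-lineage cells of the same libraries that had 0 Rag1 UMIs. That comparison is cut at Rag1, and the comparison cells need no co-receptor, so they hold later thymocyte stages as well as other T cells. All tests in the next paragraphs are edgeR's quasi-likelihood test with library as a block and Benjamini-Hochberg adjustment over 5902 genes, on 6 sums with 2 residual degrees of freedom. Of all genes tested, 5.63% were higher in members and 7.17% were lower, with a median log2 fold change of 0.04.

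The recombination machinery was higher in members. Of 16 genes listed for V(D)J recombination beside Rag1, 9 had enough counts to be tested, 6 were higher, 0 were lower and 3 did not pass, with a median log2 fold change of 1.17. Rag2 (chromosome 2, 101624718 to 101632529, plus strand), the other recombinase subunit and the neighbour of Rag1, stood at 146, 167 and 38.1 CPM in members of control 1, control 2 and the LPS library and at 0, 13.6 and 3.28 CPM in Rag1-zero cells. Every member sum was above every Rag1-zero sum, and the log2 fold change was 3.73 ± 0.35 (SE, adjusted p = 1.83e-05). Dntt (chromosome 19, 41029275 to 41059525, plus strand), the terminal transferase that adds untemplated bases to the joints, stood at 1167, 1257 and 328 CPM in members and 135, 185 and 49.2 CPM in Rag1-zero cells. Member sums of Dntt did not overlap the others, and the log2 fold change was 2.77 ± 0.19 (adjusted p = 1.27e-06).

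Repair factors of the non-homologous end joining pathway, which seals the cut ends, showed the same direction. Xrcc6, which encodes the Ku70 subunit of the end-binding Ku complex, was higher by 2.35 ± 0.23 on the log2 scale (SE, adjusted p = 2.08e-05), from 354, 372 and 449 CPM in members against 70.0, 49.4 and 131 CPM. Lig4, the DNA ligase of the pathway, was higher by 1.67 ± 0.32 (adjusted p = 0.00323), and by 2.74 without control 2. Dclre1c, the Artemis nuclease that opens hairpin ends, was higher by 1.17 ± 0.28 (adjusted p = 0.0155), a call lost without control 1 (adjusted p = 0.0894). Hmgb1, a DNA-bending cofactor of the recombinase, was higher by 0.97 ± 0.18 (adjusted p = 0.00241). Rag2 had too few counts to be tested without control 2.

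Receptor genes differed in both directions. Among 6 tested genes of the pre-TCR and TCR complex outside the rule, 2 were higher, 2 were lower and 2 did not pass. Ptcra (chromosome 17, 46755663 to 46763712, minus strand) stood at 52.7, 50.5 and 15.2 CPM in members and 5.38, 5.01 and 0 CPM in Rag1-zero cells, with no overlap and a log2 fold change of 3.31 ± 0.48 (SE, adjusted p = 0.000452). The LPS member value rests on 2 UMIs, and Ptcra could not be tested without control 2. Cd247, the ζ signalling chain, was higher by 0.72 ± 0.20 (adjusted p = 0.0345), a call lost without control 1 (adjusted p = 0.0601) and without the LPS library (adjusted p = 0.0743). The γδ receptor constant genes Tcrg-C2 and Tcrg-C4 were lower, with log2 fold changes of -4.77 ± 0.72 (adjusted p = 0.000638) and -3.98 ± 0.70 (adjusted p = 0.00197). Without the LPS library Tcrg-C2 was at -5.46, and without control 2 Tcrg-C4 was at -6.88. Trbc1, a β chain constant gene, stood at 3458, 3330 and 2125 CPM in members and 3014, 2433 and 813 CPM in Rag1-zero cells (adjusted p = 0.0999).

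Variable gene segments were read sparsely by the 3' chemistry. Members held 57, 512 and 9 UMIs of Trav genes and 75, 327 and 13 UMIs of Trbv genes in control 1, control 2 and the LPS library. Those UMIs fell on many segments, with 29, 65 and 9 of 128 Trav genes and 19, 21 and 7 of 35 Trbv genes detected. In control 2 the leading segments were Trav16n with 34 UMIs and Trbv2 with 58 UMIs. Joining segments of the α chain were at 0, 1 and 0 UMIs, so the use of Traj genes could not be described.

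Genes of the double-positive stage were mostly higher where they passed. Of 27 tested, 12 were higher, 2 were lower and 13 did not pass, with a median log2 fold change of 0.69. Arpp21, an RNA-binding protein gene abundant in double-positive cells, stood at 1059, 1123 and 945 CPM in members and 167, 117 and 55.7 CPM in Rag1-zero cells. All 3 member sums were above all others, and the log2 fold change was 3.18 ± 0.23 (SE, adjusted p = 2.31e-06). Bcl2l1, a survival gene of double-positive cells, stood at 123, 143 and 130 CPM in members against 32.3, 42.2 and 29.5 CPM. Its log2 fold change was 1.76 ± 0.23 (adjusted p = 0.000216).

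Other genes of that stage were higher as well. Endou was higher by 2.76, Ets2, an ETS family transcription factor gene, by 2.40, Rmnd5a by 2.31, Aqp11 by 2.06, Ly6d by 1.88 and Mns1 by 1.82 on the log2 scale. Tcf12, which encodes the E protein HEB that drives the double-positive programme, was higher by 1.15 ± 0.17 (SE, adjusted p = 0.000531). Themis, a regulator of TCR signalling during selection, was higher by 1.61 ± 0.27 (adjusted p = 0.00147). Both genes of the list that were lower belong also to later steps. Tox, a factor required for the CD4 lineage, had a log2 fold change of -2.51 ± 0.18 (adjusted p = 1.98e-06), and Lef1 one of -1.95 ± 0.19 (adjusted p = 2.08e-05). Tcf7 and Satb1, abundant across thymocyte stages, stood at 0.50 and 0.38 on the log2 scale and did not pass (adjusted p = 0.0766 and 0.168).

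**Figure D2:**
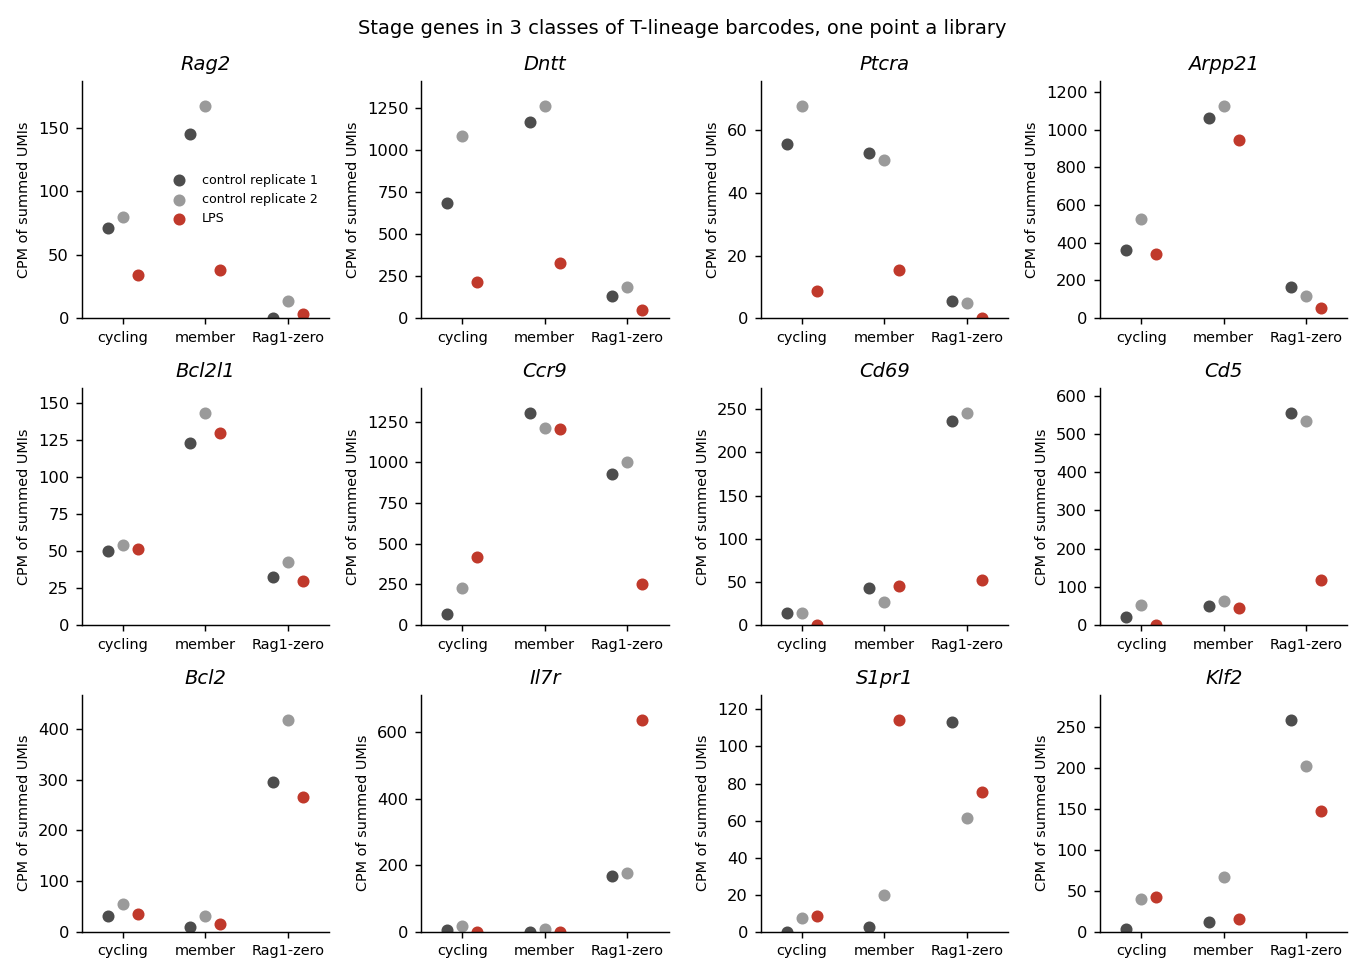
CPM of stage genes, on linear axes from 0, in the summed UMIs of members, Rag1-zero and cycling T-lineage cells of each library. Rag2, Dntt and Arpp21 lie higher in members than in Rag1-zero cells of every library, and Cd5 and Bcl2 lie lower.

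All 15 tested genes of positive selection were lower in members, with a median log2 fold change of -2.86. Cd69, the early activation antigen turned on by TCR signals, stood at 42.7, 27.1 and 45.7 CPM in members and 237, 245 and 52.5 CPM in Rag1-zero cells. The groups did not overlap, but the gap was narrow in the LPS library, and the log2 fold change of -2.86 ± 0.33 (SE, adjusted p = 7.69e-05) was -1.94 without control 2. Cd5, a surface brake on TCR signals whose level follows their strength, stood at 50.2, 63.1 and 45.7 CPM against 554, 533 and 118 CPM, with no overlap. Its log2 fold change was -3.14 ± 0.24 (adjusted p = 3.55e-06). Bcl2, a survival gene that replaces Bcl2l1 after selection, stood at 10.0, 31.0 and 15.2 CPM against 296, 418 and 266 CPM. Members were far below Rag1-zero cells for Bcl2, at -4.01 ± 0.23 (adjusted p = 5.13e-07), and at -4.69 without control 2.

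The rest of the list ran from Itm2a to Id3. Itm2a, a membrane protein gene induced at selection, had a log2 fold change of -4.12 ± 0.22 (SE, adjusted p = 5.13e-07), and the tetraspanin gene Cd53 one of -3.89 ± 0.26 (adjusted p = 1.25e-06), or -4.55 without control 2. Nab2, an early growth response cofactor, was at -3.58 ± 0.34 (adjusted p = 1.83e-05) and could not be tested without control 2. Gata3, the CD4 lineage factor, was at -1.83 ± 0.21 (adjusted p = 7.88e-05). Id3, an E protein inhibitor induced by TCR signals, was at -1.09 ± 0.21 (adjusted p = 0.00336), a call lost without control 2 (adjusted p = 0.115). In the list for agonist selection and regulatory T cells, 3 of 6 tested genes were lower and 0 higher, among them Ikzf2 at -2.40 ± 0.31 (adjusted p = 0.000194), or -1.72 without control 2.

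Proximal TCR signalling genes were divided. Of 17 tested, 2 were higher (Themis and the adaptor gene Lat), 6 were lower and 9 did not pass. The lower genes included the adhesion gene Cd2 at -3.44 ± 0.20 (SE, adjusted p = 5.13e-07), the Src family kinase gene Fyn at -1.61 ± 0.20 (adjusted p = 0.00014) and the phosphatase gene Ptpn6 at -1.61 ± 0.23 (adjusted p = 0.000453). Among 14 tested apoptosis genes, Bcl2l1 and Fas were higher, Bcl2, Trp53 and Casp8 were lower, and 9 did not pass. Fas, the death receptor, was higher by 1.13 ± 0.22 (adjusted p = 0.00426).

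**Figure D3:**
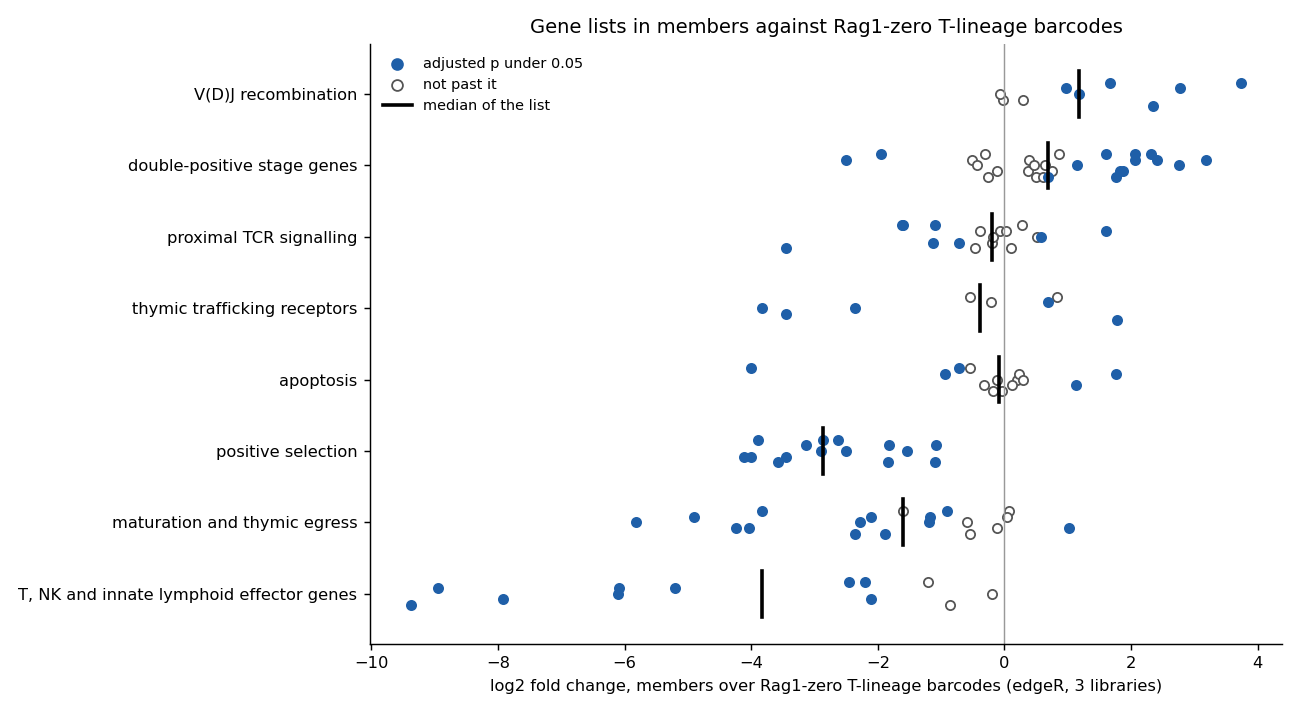
Log2 fold change of each tested gene of 8 lists, members over Rag1-zero T-lineage cells, from edgeR over 3 libraries. Filled points passed an adjusted p of 0.05 and bars are list medians, at 1.17 for V(D)J recombination and -2.86 for positive selection. The effector points at -9.36 (Klrk1) and -8.94 (Gzmb) are fitted values of genes with 0 UMIs in members.

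Genes of maturation and thymic egress were lower. Of 19 tested, 12 were lower, 1 was higher and 6 did not pass, with a median log2 fold change of -1.60. Klf2, which drives S1pr1, stood at 12.5, 67.4 and 15.2 CPM in members and 258, 202 and 148 CPM in Rag1-zero cells, with no overlap. Its log2 fold change of -2.28 ± 0.35 (SE, adjusted p = 0.000713) was -4.13 without control 2. Il7r, the interleukin-7 receptor chain that returns after selection, was at 0, 8.33 and 0 CPM in members and 167, 178 and 636 CPM in Rag1-zero cells, with a log2 fold change of -4.90 ± 0.36 (adjusted p = 2.31e-06). Ccr7, the receptor that guides selected cells to the medulla, was at 0, 5.62 and 0 CPM against 59.2, 60.1 and 138 CPM, at -3.82 ± 0.42 (adjusted p = 5.84e-05). Ms4a4b and Gimap4, genes of mature T cells, were at -4.23 ± 0.25 (adjusted p = 5.13e-07) and -4.04 ± 0.34 (adjusted p = 6.92e-06). Without control 2 these fitted values were -9.23 for Il7r, -7.39 for Ccr7, -5.15 for Ms4a4b and -6.08 for Gimap4, each against member sums with few or no UMIs. Klf3 was the gene called higher, by 1.02 ± 0.26 (adjusted p = 0.0226), a call lost without control 1 (adjusted p = 0.151) and without control 2 (adjusted p = 0.441).

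The S1P receptor genes had few counts. S1pr1, the egress receptor, stood at 2.51, 19.8 and 114 CPM in members of control 1, control 2 and the LPS library, and at 113, 61.5 and 75.4 CPM in Rag1-zero cells. Members lay below Rag1-zero cells in both controls and above them in the LPS library, and the log2 fold change of -1.60 ± 0.49 (SE) did not pass (adjusted p = 0.0508), though it did under some alternatives, such as RLE size factors and members with at least 2 Rag1 UMIs. After thinning to 1500 UMIs, S1pr1 was seen in 0 of 101 (which allows up to 2.97%), 2.45% and 10.3% of members. In cells that passed an endothelial marker gate, which express S1pr1 strongly, it was seen in 36.0%, 20.9% and 50.2%. S1pr4 was the 1 of 4 tested S1P genes that passed, at -1.17 ± 0.32 (adjusted p = 0.0293), a call lost without control 1 (adjusted p = 0.156), and it could not be tested without control 2. S1pr5 was at 0 UMIs in members of all libraries.

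Trafficking receptors of the thymus were divided. Ccr9, the receptor for the thymic chemokine CCL25, stood at 1302, 1212 and 1204 CPM in members and 931, 1004 and 252 CPM in Rag1-zero cells. Those groups did not overlap, but the log2 fold change of 0.82 ± 0.29 (SE) did not pass (adjusted p = 0.0952). Plxnd1, a semaphorin receptor that is known to turn down as cells move to the medulla, was higher by 1.78 ± 0.28 (adjusted p = 0.000992), and by 2.66 without control 2. Cxcr4, which holds cells in the cortex, was higher by 0.69 ± 0.20 (adjusted p = 0.037), a call lost without control 1 (adjusted p = 0.195) and without control 2 (adjusted p = 0.431). Ccr4, a medullary entry receptor, was lower at -3.45 ± 0.55 (adjusted p = 0.000928) and could not be tested without control 1 or without control 2. DESeq2 and a stricter set of comparison cells, with at least 2 co-receptor UMIs, each lost the calls of Cxcr4, S1pr4, Klf3, Cd247, Dclre1c, Fas and Cd79b, DESeq2 alone lost Id3, and the stricter cells alone lost Lig4.

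By size of change, the 12 genes furthest up in members were P2rx1, Prodh, Slc7a11, Rag2, Morc1, Dgkeos, Ptcra, Tctex1d1, BC028471, Arpp21, Slc6a19 and Gpr162. P2rx1, an ATP-gated ion channel, stood at 70.3, 77.8 and 45.7 CPM in members and 0, 5.01 and 0 CPM in Rag1-zero cells, for a log2 fold change of 4.204 ± 0.47 (SE, adjusted p = 6.55e-05), or 6.78 without control 2. Slc7a11, the cystine transporter, stood at 166, 228 and 663 CPM against 0, 17.9 and 49.2 CPM, at 3.74 ± 0.27 (adjusted p = 2.23e-06). Prodh, the first enzyme of proline breakdown, was at 3.94 ± 0.48 (adjusted p = 0.000128). Members did not overlap Rag1-zero cells for any of these 3 genes. Dgkeos was at 3.32, or 4.07 without control 2. BC028471, at 3.22, lost its call without control 2 (adjusted p = 0.0753), and Morc1, Gpr162 and Slc6a19 could not be tested without it.

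The 12 genes furthest down were Klra9, Klrk1, Gzmb, Klrd1, Nkg7, Il2rb, Ly6c2, Gimap3, Cd7, Ccl5, Hopx and Il7r, most of them genes of natural killer and cytotoxic T cells. In the list of T, NK and innate lymphoid effector genes, 9 of 12 tested were lower and 0 higher, with a median of -3.83 that did not move when genes at 0 were set to their bounds. Klrk1, the activating receptor NKG2D, and Gzmb, a cytotoxic protease, had 0 UMIs in members. At a floor of 3 counts over all member sums, they were at least 143.7-fold and at least 332.6-fold lower than in Rag1-zero cells. Klra9, a killer cell receptor gene, was at least 132.7-fold lower on the same floor, a call lost with DESeq2. Nkg7, a cytotoxic granule gene, stood at 0, 2.90 and 0 CPM in members and 318, 143 and 544 CPM in Rag1-zero cells. Ccl5 was at -5.20 ± 0.34 (SE, adjusted p = 9.77e-07), with 114 CPM in LPS members. Without control 2 the fitted log2 fold changes were -9.63 for Nkg7, -8.50 for Il2rb, -8.99 for Gimap3 and -6.63 for Cd7.

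Genes of other cell types were detected in members. Non-T barcodes are all deposited barcodes outside the T-lineage class, and so include those that failed a quality limit. Among them were the 4, 129 and 0 barcodes of control 1, control 2 and the LPS library that met the marker rule. Relative to the non-T barcodes of the same library, summed smooth muscle markers stood at 0.423, 0.655 and 0.610 times in members of control 1, control 2 and the LPS library, the highest such ratio among the marker lists of non-lymphoid cells of the aorta and blood. In control 2 a member held a median of 19 smooth muscle marker UMIs. Endothelial markers stood at 0.164, 0.210 and 0.426 times, and the neutrophil list was at 0, 2 and 6 UMIs in all. The list of 16 thymic stroma markers stood at 62.7, 62.7 and 68.6 CPM in members, 4.30, 1.69 and 3.08 times the level in non-T barcodes. Its UMIs came mostly from Ccl25 (8, 106 and 0 UMIs), Cldn4 (6, 90 and 0), Ly75 (5, 64 and 7) and Epcam (5, 38 and 0), while Foxn1, Krt5, Krt14 and Prss16 were at 0 UMIs in members of all libraries. Single members reached 10189 erythroid and 355 phagocyte marker UMIs, and no doublet caller was run. Against Rag1-zero cells 0 of 5 tested endothelial, 0 of 5 smooth muscle, 0 of 4 fibroblast and 0 of 4 erythroid markers passed. Of 3 tested phagocyte markers, 1 was higher in members, the lysozyme gene Lyz2, by 1.31 ± 0.36 (SE, adjusted p = 0.0282), from 12.5, 94.7 and 0 CPM in members against 0, 36.5 and 3.28 CPM. The B cell genes Ighm and Cd79b were higher in members, by 0.99 ± 0.17 (SE, adjusted p = 0.00184) and 1.95 ± 0.51 (adjusted p = 0.0225). Without the LPS library Cd79b was at 2.61, and without control 2 it could not be tested. The part of free RNA and doublets in these values was not tested.

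Dividing T-lineage cells of the same libraries, with at least 3 UMIs over the cycling genes, were the second comparison. It used both controls (22 and 207 cycling cells), since the LPS library held 12. Cycling cells were far deeper, with a median of 16915 and 14295 UMIs against 3562 and 3927 in members. Of 9805 genes tested by edgeR's quasi-likelihood test with library as a block, on 4 sums with 1 residual degree of freedom, 20.8% were higher in members and 23.6% lower. Markers of unrelated cells were higher in members together: 7 of 7 tested endothelial, 5 of 5 smooth muscle, 5 of 5 fibroblast, 5 of 5 erythroid, 4 of 5 phagocyte and 3 of 3 dendritic genes. The part of depth and free RNA in the higher calls was not tested. Values given without a control, for this comparison, are plain log2 ratios of CPM + 1 in the remaining library, with no test. They lack the TMM scaling of the fit and are not on its scale. For Rag2 both plain values, 1.05 without control 1 and 1.01 without control 2, lay above the fitted 0.74.

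Transcripts of division beyond the genes of the rule were low in members. Of 27 tested replication and division genes outside the rule, 24 were lower, 1 was higher and 2 did not pass, with a median log2 fold change of -3.76. Pcna, the replication clamp, stood at 27.6 and 71.5 CPM in members of controls 1 and 2 and 610 and 661 CPM in cycling cells, at -3.83 ± 0.20 (SE, adjusted p = 8.51e-75), with -3.19 without control 1 and -4.42 without control 2. Hmgb2, a chromatin protein of dividing cells, stood at 281 and 186 CPM against 6156 and 4961 CPM, at -4.90 ± 0.17 (adjusted p = 4.94e-179). Mcm5, part of the replicative helicase, was at -4.92 ± 0.28 (adjusted p = 3.85e-68). Adjusted p-values this small rest on a spread borrowed across genes. Largest in size among the lower genes were Depdc1a, Bub1, Kif2c, Pimreg, Nek2, Hist1h3b, Ccnb1, Kif15, Hist1h2af, Ncapg, Esco2 and Nuf2. Depdc1a, Bub1, Kif2c and Pimreg had 0 UMIs in members of the controls and were at least 139.8-fold, 134.0-fold, 123.9-fold and 110.3-fold lower at a floor of 3 counts.

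Recombination genes were divided in this comparison. Of 14 tested V(D)J genes outside the rule, 2 were higher in members, 5 lower and 7 did not pass, and the lower ones included Hmgb1 at -1.50 ± 0.14 (SE, adjusted p = 6.85e-26). Rag2 stood at 146 and 167 CPM in members and 71.6 and 80.2 CPM in cycling cells, with no overlap and a log2 fold change of 0.74 ± 0.21 (adjusted p = 0.00163). Dntt stood at 1167 and 1257 CPM against 684 and 1083 CPM, and its log2 fold change of 0.18 ± 0.17 did not pass (adjusted p = 0.395). Ptcra was at 52.7 and 50.5 CPM in members and 55.7 and 67.6 CPM in cycling cells, at -0.64 ± 0.26 (adjusted p = 0.0327). Its plain ratios were -0.41 without control 1 and -0.08 without control 2. Of these 3 genes, Rag2 was the one called higher in members. DESeq2 and a fit with no replicate block each lost the calls of Rag2 and Ptcra, DESeq2 also lost that of Bcl2l1 below, and the fit with no replicate block that of Arpp21.

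Receptor loci that precede the αβ stage were lower in members. Trdc, the δ chain constant gene that is deleted when the α chain rearranges, stood at 17.6 and 31.6 CPM in members and 179 and 309 CPM in cycling cells. Its log2 fold change was -3.61 ± 0.23 (SE, adjusted p = 1.5e-52). Tcrg-C2 was at -6.71 ± 0.45 (adjusted p = 7.98e-48), or -5.07 without control 1, with 0 and 4 UMIs in the member sums. Of 10 tested genes of the double-negative stage, 2 were higher (Hhex and Mef2c), 3 were lower (Il2ra, Hes1 and Notch1) and 5 did not pass, with a median log2 fold change of 0.07. Notch1, the receptor that commits early thymocytes to the T lineage, was at -1.36 ± 0.22 (adjusted p = 1.21e-08). Il2ra, a marker of the earlier double-negative stage, was at -2.19 ± 0.34 (adjusted p = 1.92e-09), or -1.59 without control 1. Against only those cycling cells that also held Rag1 and co-receptor UMIs, Il2ra turned to 1.99 (adjusted p = 0.0394).

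Genes of the double-positive stage and of TCR signalling were mostly higher in members than in cycling cells where they passed. Double-positive stage genes were higher for 18 of 28 tested, lower for 1 and not past the test for 9, with a median log2 fold change of 0.64. Ccr9 stood at 1302 and 1212 CPM in members and 67.6 and 228 CPM in cycling cells, at 2.82 ± 0.19 (SE, adjusted p = 7.05e-48), or 4.25 without control 2. Arpp21 was higher by 1.01 ± 0.17 (adjusted p = 4.17e-08) and Bcl2l1 by 1.07 ± 0.23 (adjusted p = 2.09e-05). Proximal TCR signalling genes were higher for 10 of 17 tested and lower for 0, among them Themis at 1.57 and the costimulatory receptor gene Cd27 at 1.47. The cell cycle inhibitor gene Cdkn1b was at 1.17 ± 0.19 (adjusted p = 3.65e-09) and the antiproliferative gene Btg2 at 1.53 ± 0.18 (adjusted p = 2.74e-16). Fas was at 1.66 and Mcl1, a survival gene, at 1.10. Without control 2 the plain ratios, not scaled like the fit, were 2.38 for Themis, 2.30 for Cd27, 2.16 for Cdkn1b, 2.43 for Btg2, 2.74 for Fas and 1.81 for Mcl1.

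By size of change the 12 genes furthest up against cycling cells were Slc6a19, Tdrp, BC065403, Gramd3, Xrra1, Tctex1d1, Vamp1, Gimap8, Spo11, Patj, Slfn5 and Bmf. Slc6a19, an amino acid transporter gene, stood at 67.8 and 58.1 CPM in members and 0 and 2.10 CPM in cycling cells. Spo11, known for DNA breaks in meiosis, stood at 143 and 88.3 CPM against 1.99 and 10.2 CPM, at 3.19 ± 0.32 (SE, adjusted p = 3.55e-22), or 5.59 without control 2. Slc6a19 and Tctex1d1 were among the 12 furthest up in both comparisons, which share the member sums of both controls.

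Members differed among themselves in Cd69. It was detected in 10, 100 and 5 members of control 1, control 2 and the LPS library, and after thinning to 1500 UMIs in 5.94%, 3.27% and 3.45%. In Rag1-zero cells it was seen in 21.2%, 26.04% and 9.52% after thinning, and in endothelial-gated cells in 0 of 25, 0 of 115 and 0.398%. Only control 2 had at least 20 members on each side, so the split is described in that library with exact Poisson 95% intervals and no test. Those intervals cover counting error only and leave out the spread between cells and between pools. The Cd69-positive and Cd69-zero members of control 2 were alike in depth, with medians of 3905.5 and 3929 UMIs. Cd5 stood at 218 CPM (176 to 266) with Cd69 and 48.7 CPM (42.6 to 55.4) without.

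Several other selection genes were also higher with Cd69 in that library. Cd6, a relative of Cd5, stood at 279 CPM (232 to 333) in Cd69-positive members against 128 CPM (118 to 138). Egr1, an immediate target of TCR signals, was at 197 CPM (158 to 243) against 54.6 CPM (48.2 to 61.7), and Itm2a at 102 CPM (74.4 to 136) against 29.0 CPM (24.4 to 34.3). Ikzf2, Tox and Gata3 were at 267, 215 and 125 CPM against 72.8, 93.2 and 54.8 CPM. Intervals of counting error did not overlap for any of these genes, which describes 1 library and is no test. They did overlap for Id3 (269 to 377 against 245 to 274 CPM), Nab2 (12.4 to 44.6 against 7.68 to 13.7 CPM) and Cd53 (14.1 to 47.5 against 17.2 to 25.8 CPM). Trac, the α chain constant gene and a gene of the rule, was at 746 CPM (667 to 831) against 431 CPM (413 to 450). Rag1, a gene of the rule, was lower in control 2, at 1512 CPM (1399 to 1631) against 1915 CPM (1876 to 1955), but not in the other libraries. It stood at 2441 CPM (1994 to 2957) against 2288 CPM (2133 to 2450) in control 1, and at 2263 CPM (1705 to 2945) against 1122 CPM (930.2 to 1342) in the LPS library, where 5 members held Cd69. In control 2, Rag2, Dntt and Arpp21 had overlapping intervals, with Dntt at 1283 and 1254 CPM. In control 1, with 10 Cd69-positive members, Cd5 stood at 141 CPM (51.7 to 306) against 39.3 CPM (21.5 to 66.0), and Id3 at 70.4 CPM (14.5 to 206) against 169 CPM (129 to 217), both with overlapping intervals. There Cd6, Itm2a, Ikzf2, Tox and Gata3 were also higher with Cd69, while Egr1 was at 0 UMIs. These higher values rest on 7, 3, 4, 9 and 4 UMIs in that order, and the intervals overlapped for each gene. In the LPS library Cd5, Itm2a and Ikzf2 were at 0 UMIs with Cd69, which allows up to 152 CPM. Cd6 and Egr1 were lower with Cd69 in that library, on 1 and 2 UMIs, and Tox and Gata3 were higher on 1 UMI each. The intervals overlapped for each of these genes.

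**Figure D4:**
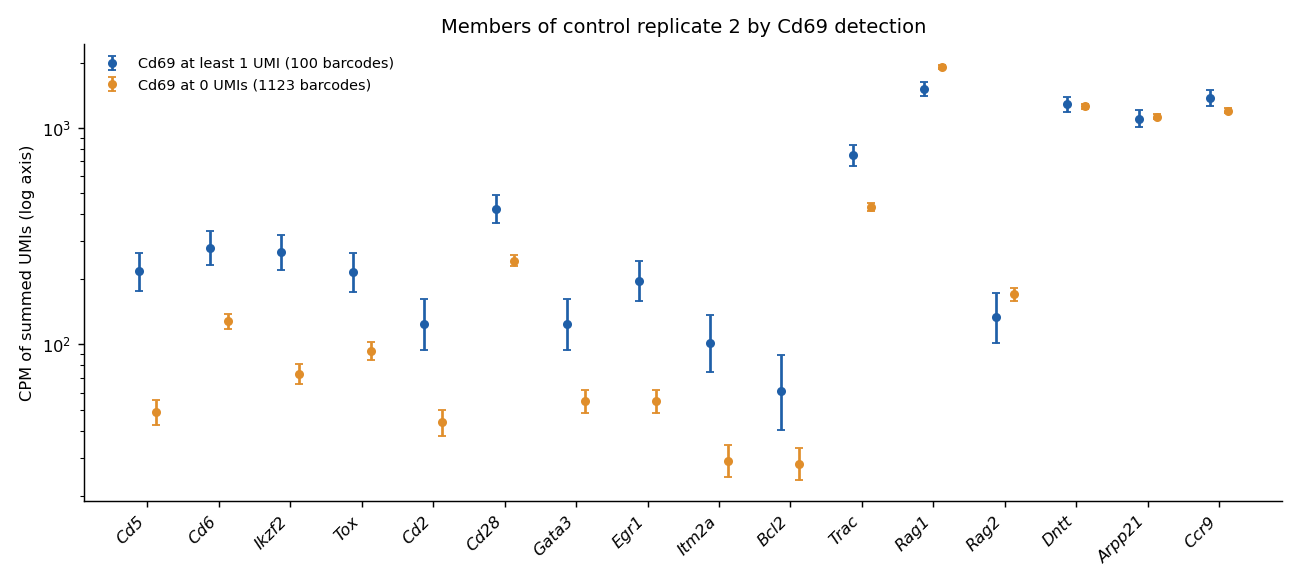
CPM of summed UMIs, on a log axis, in the 100 members of control 2 with Cd69 and the 1123 without, with exact Poisson 95% intervals. Cd5, Egr1 and Itm2a lie higher with Cd69, Rag1 lies lower, and Dntt and Arpp21 overlap.

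LPS members were compared with control members on 3 sums, where the LPS side is 1 library assumed to vary like the controls. Of 6681 genes tested by edgeR's quasi-likelihood test, 0 were called higher and 0 lower (percent called 0 in each direction), 697 had an unadjusted p under 0.05, and the smallest adjusted p was 0.226. DESeq2 called 14 higher and 4 lower. The gene with the smallest p was Lcn2, at 0, 0 and 548 CPM in members of control 1, control 2 and the LPS library. In the non-T barcodes of the LPS library it stood at 3019 CPM. As a description, the LPS sum lay above both controls for 34.2% of genes and below both for 45%, and the median log2 fold change was -0.10. The LPS sum rests on 29 cells, and the mitochondrial and Gm42418 shares given above differed between the libraries.

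Interferon genes were high in LPS members. Of 32 tested genes of the type I interferon response, the LPS sum lay above both controls for 31, below both for 0 and between them for 1, with a median log2 fold change of 2.71. An adjusted p under 0.05 was reached by 0 of the 32, and an unadjusted p under 0.05 by 26. Usp18, an inhibitor of the receptor that interferon induces, was at 15.1, 5.42 and 183 CPM, and Rtp4 at 12.5, 13.2 and 183 CPM. Zbp1, a nucleic acid sensor, was at 52.7, 29.4 and 335 CPM, and Irf9, a DNA-binding factor of the interferon response, at 25.1, 18.6 and 175 CPM.

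Free RNA could reach these sums from the other cells of the library. An upper bound for RNA from non-T barcodes was set at 0.610 times their level in the LPS library, the smooth muscle ratio above. The B cell and thymic stroma lists had higher ratios, 3.23 and 3.08, and were not used. RNA freed by T-lineage cells is not counted in the bound, and its part was not tested. Of the 31 interferon genes above both controls, 23 exceeded that bound in LPS members and 8 did not. The count leaves out counting error, and some genes lay close above the bound, such as Gbp7 (27 UMIs against 21.8) and Irgm1 (12 against 7.04). At the bound free RNA would make up 9.61% of the Usp18 UMIs of LPS members, 22.03% for Rtp4, 43.5% for Isg15 and 73.4% for Irf7. Gbp2 and Ly6a did not exceed the bound, at 124% and 282% of their UMIs, and Lcn2 stood at 335%. The Usp18 level of LPS members was above that of the non-T barcodes, which stood at 28.8 CPM.

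Interferon genes carry a known promoter motif, the interferon-stimulated response element, so promoters of 3 of these genes are shown with its core. The letters GAAANNGAAA, searched on both strands in the 250 bases before each start of transcription (RefSeq, GRCm38.p6, overlapping matches merged), were found for 12 of 23 interferon genes with the LPS sum above both controls and a window in the table, 52.2%. They were found for 3.46% of 27025 genes with a window, for 3.31% of the 5321 tested genes with one, and for 1 of 8 glucocorticoid genes. Isg15 encodes a ubiquitin-like protein (90.3, 22.3 and 465 CPM in members of control 1, control 2 and the LPS library), Ifit1 an RNA-binding antiviral protein (25.1, 8.33 and 289 CPM) and Igtp an immunity-related GTPase (100, 66.4 and 183 CPM). Each stretch of 100 bases is written 5′ to 3′ on the strand of the gene, with matches in capitals, where TTTC marks the motif on the opposite strand. The windows are chr4:156200822-156200921 (minus strand) for Isg15, chr19:34640760-34640859 (plus strand) for Ifit1 and chr11:58199456-58199555 (plus strand) for Igtp.
Isg15: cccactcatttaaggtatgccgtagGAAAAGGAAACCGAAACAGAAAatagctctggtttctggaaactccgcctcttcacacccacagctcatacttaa
Ifit1: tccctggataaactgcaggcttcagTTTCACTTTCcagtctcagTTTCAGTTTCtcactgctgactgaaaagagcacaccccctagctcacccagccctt
Igtp: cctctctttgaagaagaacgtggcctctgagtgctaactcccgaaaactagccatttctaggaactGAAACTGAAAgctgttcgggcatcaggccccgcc
In Isg15 the capitals join overlapping matches into 1 run, in Ifit1 2 matches lie apart, and Igtp has 1. A match is a description of the letters and shows no binding. The genes were listed for being interferon genes, so their share with the motif says nothing of a response in these cells.

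Glucocorticoid-responsive genes were also high. For 10 of 10 tested genes the LPS sum lay above both controls, with a median log2 fold change of 1.98 and 0 past an adjusted p of 0.05. Tsc22d3, which encodes GILZ, a mediator of glucocorticoid effects in lymphocytes, stood at 65.3, 111 and 526 CPM. Fkbp5, a chaperone of the receptor, stood at 60.2, 83.3 and 343 CPM, and Ddit4, a stress inhibitor of mTOR, at 55.2, 62.0 and 328 CPM. Nr3c1, the receptor itself, stood at 151, 173 and 427 CPM. Of these 10 genes 9 exceeded the free RNA bound, which came to 10.3% of the Tsc22d3 UMIs and 5.01% of the Ddit4 UMIs. Counting error was again left out, and Zbtb16 lay close above its bound, at 8 UMIs against 7.08.

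The apoptosis list was mixed, with the LPS sum above both controls for 4 of 15 tested genes, below both for 7 and between for 4. Over all genes tested, 34.2% lay above both and 45% below both, so the list as a whole did not stand apart. Bcl2l11 and Bbc3, proapoptotic genes known to act in the death of double-positive cells, were among the genes above both. Bcl2l11, which encodes BIM, stood at 55.2, 55.0 and 350 CPM, at 2.77 ± 0.34 on the log2 scale (SE, adjusted p = 0.254). After thinning, Bcl2l11 was seen in 4.95% (1.63 to 11.2), 8.59% (7.08 to 10.3) and 51.7% (32.5 to 70.6) of members, and in 0 of 25, 1.74% and 1.59% of endothelial-gated cells. Thinned to 1000 UMIs instead, Bcl2l11 was seen in 5.89% of members in control 2 and 13.8% (3.89 to 31.7) in the LPS library. That LPS interval held the control 2 share, so the gap in detection was not stable between the thinnings. Each thinning was a single random draw, so depth and the draw cannot be told apart. Bbc3, which encodes PUMA, stood at 5.02, 32.5 and 137 CPM. Free RNA at its bound, which leaves out RNA freed by T-lineage cells, would give 1.75% of the Bcl2l11 UMIs and 1.34% of the Bbc3 UMIs. Bcl2l1 and Mcl1 stood at 123, 143 and 130 CPM and at 454, 405 and 434 CPM, with the LPS value between the controls.

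Double-positive stage genes were low in LPS members. The LPS sum lay below both controls for 22 of 27 tested genes, above both for 2 and between for 3, with a median log2 fold change of -0.77 and 0 past an adjusted p of 0.05. Dntt stood at 1167, 1257 and 328 CPM (adjusted p = 0.372), and after thinning was seen in 85.1% (76.7 to 91.4), 81.0% (78.7 to 83.2) and 37.9% (20.7 to 57.7) of members. Ly6d stood at 1142, 939 and 175 CPM, Bcl11b, a factor that holds T cell identity, at 1036, 1129 and 350 CPM, and Themis at 833, 779 and 350 CPM. Rag2 stood at 146, 167 and 38.1 CPM, where the LPS value is 5 UMIs, and was seen in 19.8%, 20.7% and 10.3% after thinning, with overlapping intervals. Arpp21 stood at 1059, 1123 and 945 CPM, close to the controls, and Ets1 at 680, 659 and 747 CPM. The LPS values of that list thus ran from far below the controls to near them. In Rag1-zero cells the LPS sum lay below both controls for 25 of the same 27 genes and above both for 0.

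Among the S1P genes, the LPS sum lay above both controls for 5 of 5 tested, with a median log2 fold change of 1.20. S1pr1 stood at 2.51, 19.8 and 114 CPM (15 UMIs in the LPS sum), but free RNA at its bound would give 82.9% of those UMIs. Sgpp1, an S1P phosphatase, stood at 37.6, 34.7 and 99.0 CPM. Free RNA at its bound, which leaves out RNA freed by T-lineage cells, would give 5.21% of its LPS UMIs. Slc7a11, among the genes furthest up against Rag1-zero cells, stood at 166, 228 and 663 CPM, a difference that did not pass (adjusted p = 0.323). Junb, an immediate-early factor, stood at 103, 125 and 1028 CPM. Erythroid marker sums lay below both controls for 5 of 5 tested genes, but single members held 10189 of the 10431 erythroid UMIs of control 1 and 7173 of the 46427 of control 2. The median per member was 1, 1 and 6 erythroid UMIs, highest in the LPS library.

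**Figure D5:**
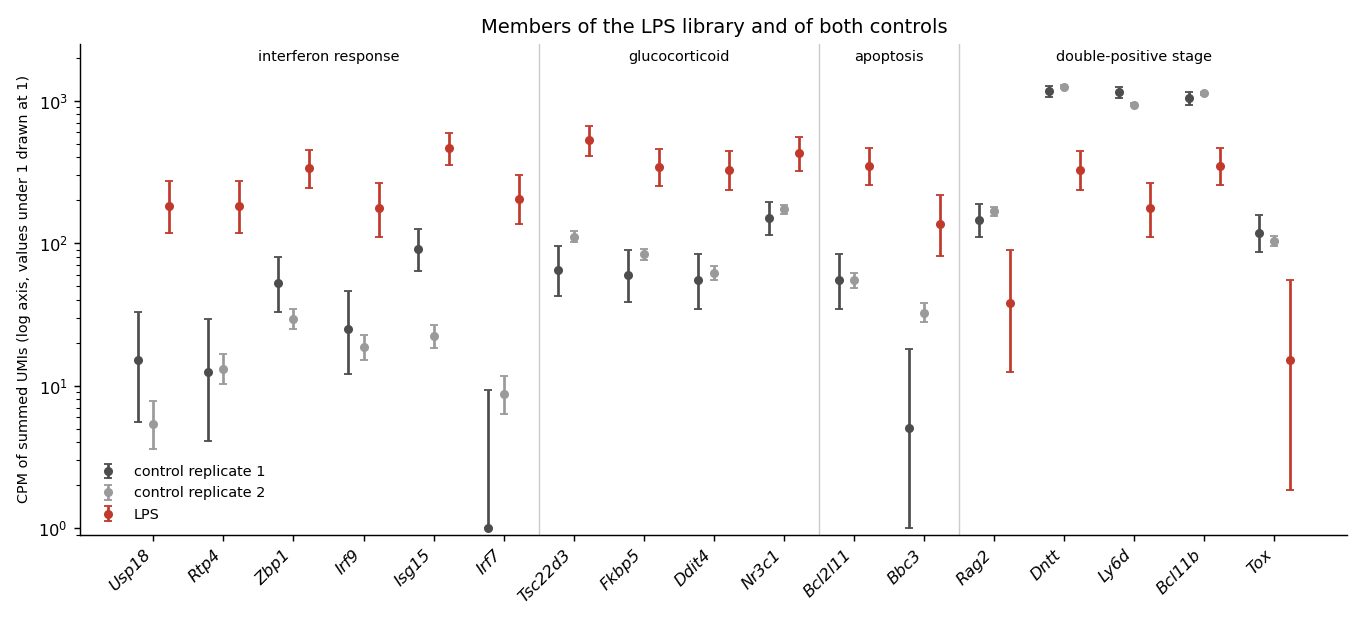
CPM of summed UMIs, on a log axis, in members of control 1, control 2 and the LPS library, with exact Poisson 95% intervals. Usp18, Tsc22d3 and Bcl2l11 lie above both controls in the LPS library, and Dntt, Ly6d and Bcl11b lie below both.

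Rag1-zero cells of the same libraries gave a comparison for the response, but their makeup differed between libraries. Those with at least 2 co-receptor UMIs were 19 of 34 in control 1, 176 of 269 in control 2 and 17 of 42 in the LPS library. Between their LPS and control sums, edgeR's quasi-likelihood test called 120 of 5573 genes higher (2.15%) and 36 lower (0.646%). Interferon genes were higher for 18 of 32 tested and glucocorticoid genes for 5 of 10, with 0 lower in either list. In the same cells 4 of 16 tested effector genes were higher (Gzmb, Prf1, Klrb1c and Ccl5), as were 5 of 19 maturation genes, among them Il7r, while 6 of 15 positive selection genes, among them Cd69 and Cd5, were lower. Double-positive stage genes had a median log2 fold change of -1.32 between the LPS and control sums of these cells. The part of these shifts in the differences below was not tested. The LPS response of members minus that of Rag1-zero cells, tested as an interaction in a fit blocked on library, differed for 0 of 32 interferon genes and 0 of 11 glucocorticoid genes. Over 6993 genes that test called 10 higher (0.143%) and 7 lower (0.1%). The median of that difference was 0.10 over the interferon genes and -0.21 over the glucocorticoid genes on the log2 scale. Ccr9 was among the called genes: it stood at 1302, 1212 and 1204 CPM in members and 931, 1004 and 252 CPM in Rag1-zero cells, a difference between the responses of 1.79 ± 0.35 (SE, adjusted p = 0.0138).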

How the data were processed

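The authors deposited raw counts of UMIs for 32285 genes in each barcode. Cell Ranger 3.1, mm10, R 4.2.1 and Seurat 4.2.0 are named in the submitters' processing notes. No source used here gives the annotation release, and gene positions are those of GENCODE M21 (GRCm38). Members and the 26 gene lists were chosen with earlier results of these data known.

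Because cells are not replicates, counts were added up by class within each library, for classes with at least 20 barcodes in a library. Sums were tested with edgeR 4.0.16 (R 4.3.3; quasi-likelihood test, TMM factors, filterByExpr, library as a block where classes were compared, Benjamini-Hochberg adjustment at 0.05), checked on simulated data. SE is the log2 fold change divided by the square root of F. Classes were paired by library because they come from the same animals. Deviations of members and Rag1-zero cells of 1 library correlated at 0.464, 0.605 and 0.448 over 5902 genes. Those of members and cycling cells correlated at 0.439, 0.609 and 0.387. Classes of a library also share its preparation, and the source of the correlation was not tested. CPM are UMIs per 1000000 UMIs of the class. Detection was compared after thinning each barcode to 1500 UMIs. For each test the text names at most 12 higher and 12 lower genes, ranked by fitted change among genes past the threshold whose mean reached 20 CPM and whose direction was the same in every library, leaving out genes of the rule, predicted, mitochondrial, ribosomal protein and haemoglobin genes. From each list 2 to 6 were named by detection or size of change, and a few more were chosen after their values were seen. Alternatives were DESeq2 1.42.0, other size factors, no low-count filter, other cell limits, other comparison cells and each library left out. No doublet caller was run; barcodes above 2 times the class median UMIs were left out as an alternative. Intervals were computed with scipy 1.17.1 (Python 3.11.15). Some results are not reported here.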

Additional observations from a re-analysis of the deposited data

Results flagged for a closer look

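For 17 genes the LPS response of members differed from that of Rag1-zero T-lineage cells by the interaction test (edgeR's quasi-likelihood test, adjusted p under 0.05). The test rests on 1 LPS library with 29 members and 42 Rag1-zero cells, whose share with at least 2 co-receptor UMIs (17 of 42) differed from the controls (19 of 34 and 176 of 269), and no cause was tested. The log2 difference was positive for A430106G13Rik (4.47), Stap1 (2.55), Etnk1 (2.24), Arap2 (2.12), Lmo4 (1.84), Gm12840 (1.83), Ccr9 (1.79), Tespa1 (1.76), Gm4258 (1.75) and Wasf2 (1.65). It was negative for Ifngr1 (-1.58), Lgals1 (-1.85), Cd52 (-1.92), Ptpn22 (-2.44), Vps37b (-3.60), Tyrobp (-10.02) and Serpinb9 (-10.96), where Tyrobp and Serpinb9 had 0 UMIs in LPS members, so that their fitted values are no measure of size.

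Members and Rag1-zero cells took different parts in these differences. Wasf2, an actin regulator gene, stood at 241, 221 and 907 CPM in members of control 1, control 2 and the LPS library, and at 194, 157 and 200.03 CPM in Rag1-zero cells. Arap2 stood at 133, 94.9 and 663 CPM in members against 280, 260 and 364 CPM. For Etnk1, Tespa1 and Stap1 the Rag1-zero cells were low in the LPS library, as for Etnk1 at 275, 408 and 91.8 CPM, while members stood at 203, 265 and 312 CPM. Cd52, a surface glycoprotein gene of lymphocytes, stood at 1006, 879 and 160.0 CPM in members and 1884, 1651 and 1072 CPM in Rag1-zero cells. Ptpn22, a phosphatase that dampens TCR signals, stood at 87.8, 100.3 and 122 CPM in members and 70.0, 83.7 and 512 CPM in Rag1-zero cells.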

How the results depend on the processing

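Against Rag1-zero cells, counts of higher and lower genes (332 and 423) were 157 and 270 with DESeq2, 68 and 66 with no replicate block, 161 and 202 against comparison cells with at least 2 co-receptor UMIs (classes of at least 15, added after seeing the data), and ranged from 173 to 472 and from 238 to 628 with 1 library left out. Directions of the 755 calls were the same under each of these settings for every gene that could be fitted. Against cycling cells (2040 and 2314) they were 388 and 1062 with DESeq2 and 331 and 964 with no replicate block. With cycling cells that hold Rag1 and co-receptor UMIs (added), Dntt stood at -0.0058 and Il2ra at 1.99. For LPS against control members, 0 calls each way became 1 higher with RLE size factors, 14 and 4 with DESeq2, 163 and 119 with no filter on low counts, 2 higher without barcodes above 2 times the median UMIs (added), and 87 and 103 after free RNA was subtracted at its bound (added), where 38 of the 103 had their LPS sum set to 0. The cause of these shifts was not tested.

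Shares of kept barcodes were 31.6% in control replicate 1 with 1000 UMIs as minimum and 40.3% with the rule applied after thinning. In control replicate 2 they were 43.0% with at least 2 Rag1 UMIs, 29.8% with a mitochondrial limit of 10% and 42.9% after thinning (67.6%, 49.3% and 64.3% of T-lineage barcodes), and in the LPS library 0.330% after thinning. Thinned to 1000 UMIs, detection was 12.5% and 15.2% for Rag2 and 68.3% and 67.3% for Dntt in the controls, 2.21% for Cd69 and 5.89% for Bcl2l11 in control replicate 2, and 13.8% for Bcl2l11 in LPS members.

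Leaving out barcodes with markers of other cells left 0 members in control replicate 2 and gave no value. The stricter comparison cells at 20 barcodes, the test of the Cd69 split, and the comparison with cycling cells without barcodes of high UMIs or with 1 library left out had too few libraries for a test. The LPS member sum holds 131267 UMIs from 29 cells, against 5163919 from 1223 in control replicate 2.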
